A study of Homo sapiens with 6 samples.

Results

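The mitochondrial chromosome was represented by 37 genes among the 58735 of the deposited count table: 13 coding genes, 2 ribosomal RNA (rRNA) genes and 22 transfer RNA (tRNA) genes. They are all rows that the table places on chromosome MT. That rule uses no measured value, but earlier results of these data were known when it was set. The cells were 786-O, a long-established line from a human renal cell carcinoma, and carried a short hairpin RNA that was either a control (sh-Control, 3 libraries) or directed at CBX7, a Polycomb gene (sh-CBX7, 3 libraries). The deposited columns name the target libraries siCBX7 and the labels sh-CBX7; the name in the labels is used here. The labels give no vector, number of hairpins, clone, drug treatment or time after introduction of the hairpin. RNA was selected on poly-T beads and fragments of 370 to 420 bp were preferred per the labels' protocols, so the values describe RNA retained on those beads.

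The human mitochondrial genome is a small circle, present in many copies per cell, whose genes encode core subunits of the respiratory chain and ATP synthase together with the rRNAs and tRNAs that translate them. Both strands are read as long precursors from promoters in the control region, and the tRNAs that punctuate the precursors are cut out to free the other RNAs. Most mRNAs then receive short poly-A tails, which for some of them complete a stop codon that the DNA encodes only in part. RNA levels thereafter depend on transcription, cutting, tailing and decay by proteins encoded in the nucleus. The kidney tubule, from which clear cell carcinoma arises, is rich in mitochondria.

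Positions follow the table, whose 37 mitochondrial rows all had the start, end, strand and length of GENCODE 29 on GRCh38. In this compact genome neighbouring genes touch or overlap, so some bases belong to 2 genes. MT-ATP8 and MT-ATP6, which encode ATP synthase subunits and lie on a shared mRNA, overlap by 46 bases (chrM:8527-8572). MT-ND4L and MT-ND4, complex I subunits on another shared mRNA, overlap by 7 bases (chrM:10760-10766). The 2 junctions are shown because a read in the shared bases, printed in capitals, matches both genes. How such reads were counted is not given in the sources used here. All 4 stretches are on the plus strand, from the GENCODE 29 transcripts.
MT-ATP8 3′ end (chrM:8513-8572): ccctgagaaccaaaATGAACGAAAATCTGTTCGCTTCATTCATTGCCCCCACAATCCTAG
MT-ATP6 5′ end (chrM:8527-8586): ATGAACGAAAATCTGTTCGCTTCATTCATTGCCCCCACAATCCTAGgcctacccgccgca
MT-ND4L 3′ end (chrM:10737-10766): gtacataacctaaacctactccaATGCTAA
MT-ND4 5′ end (chrM:10760-10789): ATGCTAAaactaatcgtcccaacaattata

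The ends of coding genes are shown because some stop codons are encoded only in part. In 6 of the 13 coding genes (MT-ND1, MT-ND2, MT-CO3, MT-ND3, MT-ND4 and MT-CYB) the length was not a multiple of 3, so the last codon is cut short in the DNA. The last 15 bases of 4 genes on the plus strand follow, with the stop codon, or the base encoded of it, in capitals. MT-CO1 ends in a triplet that the standard code reads as arginine.
MT-CO1 (chrM:7431-7445): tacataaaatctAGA
MT-ND4 (chrM:12123-12137): ccgggttttcctctT
MT-ND5 (chrM:14134-14148): ctcctaatcacaTAA
MT-CYB (chrM:15873-15887): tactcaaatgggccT

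The libraries held 16384151 to 18868874 counts, of which the mitochondrial genes took 394220 to 506067. CBX7 had 203, 240 and 183 counts in sh-Control and 143, 111 and 142 in sh-CBX7, without overlap. Of 13 markers of kidney epithelium and renal carcinoma, 12 passed the filter on low counts, with PAX8 at 281.8 CPM in sh-Control and 225.3 CPM in sh-CBX7, while CDH1 did not pass. Markers of other cell types were low but not all absent. The 6 immune markers summed to 1.21 to 2.10 CPM in sh-Control and 0.954 to 2.03 CPM in sh-CBX7, mostly CD14, with PTPRC and CD3E at 0 in all 6 libraries. The 4 endothelial markers summed to 2.22 to 3.13 CPM and 3.86 to 5.03 CPM, higher in every sh-CBX7 library, with PECAM1 called higher (0.70 on the log2 scale) and CDH5 at 0 throughout. The 5 fibroblast markers summed to 10.02 to 11.6 CPM and 11.1 to 12.7 CPM, with LUM called higher (0.73) and COL1A1 lower (-1.03). The 2 erythroid markers, HBB and HBA1, had 0 counts in every library. The part of these genes in the mitochondrial values was not tested. CPM is the TMM-normalised count per unit of library size that edgeR's cpm function returns. One library stood apart for these genes: sh-Control replicate 1 had the lowest value of its group in all 15 coding and rRNA genes, with a median deviation of -0.17 on the log2 scale from the group mean. The coefficient of variation between libraries was larger in sh-Control than in sh-CBX7 for 13 of the 15 genes, with medians of 10.5% and 3.66%. Calls on named genes that change without this library are given both ways.

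Against the control hairpin, the 2 rRNAs were higher in sh-CBX7 and 6 of the 13 coding genes were lower. The other 7 coding genes and the 6 tested tRNAs were not called. MT-ND4L and MT-ND4, which lie on a shared mRNA, are both among the 6. Of the 37 genes, 21 passed the filter: all 13 coding genes, both rRNA genes and 6 of 22 tRNA genes. An edgeR quasi-likelihood fit over 14573 genes was used, with Benjamini-Hochberg adjustment and an adjusted p below 0.05 as the call. Among all tested genes 26.1% were called higher and 27.2% lower, so 2 higher and 6 lower of 21 is a share below the background for rises and near it for falls. The 3 libraries of a group did not overlap with the other 3 in 7 of the 21 genes, against 59% of all tested genes. The median log2 fold change (sh-CBX7 over sh-Control) was -0.09 over the 21 genes and -0.01 over all tested genes. Nothing in the labels says whether each library is a culture of its own, so the p-values rest on a spread between samples that may be purely technical. In bulk RNA, fewer cells of a type and less RNA per cell cannot be told apart.

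**Figure D1:**
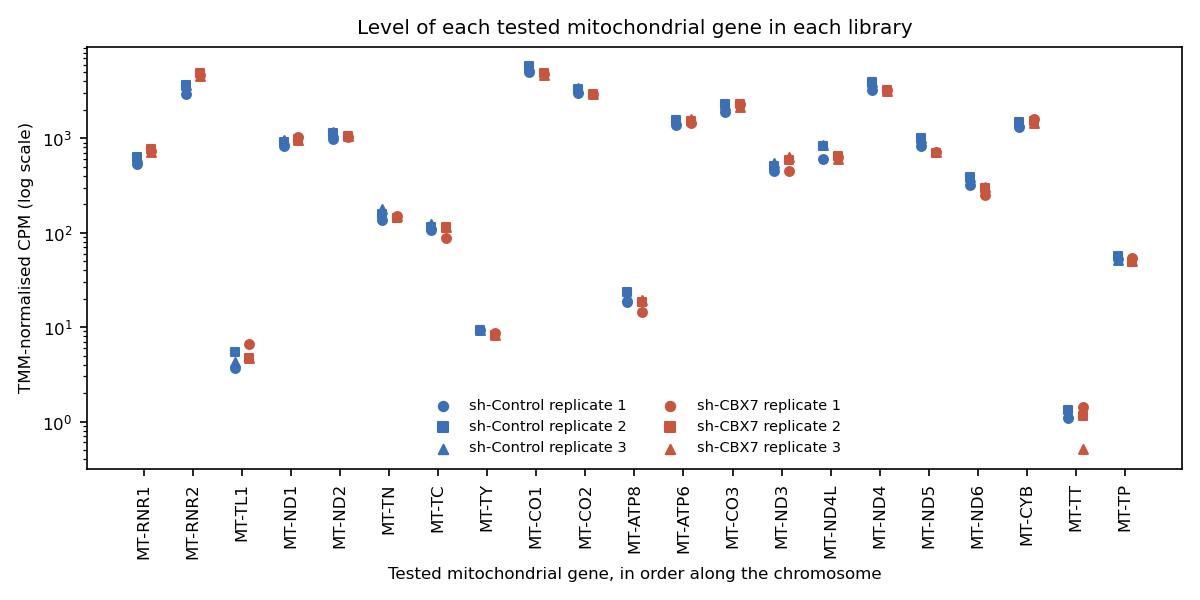
TMM-normalised CPM (log axis) of the 21 tested mitochondrial genes in each of the 6 libraries, 3 per group, with genes in their order along the chromosome. MT-CO1 spanned 4644 to 5804 CPM and MT-TT 0.507 to 1.43 CPM, and sh-Control replicate 1 (blue circles) lay lowest of its group in all coding and rRNA genes.

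The 2 rRNAs form the core of the mitochondrial ribosome. MT-RNR2 (ENSG00000210082, chrM:1671-3229, plus strand), the RNA of the large subunit, stood at 2956, 3647 and 3629 CPM in sh-Control replicates 1 to 3 and at 4637, 4920 and 4551 CPM in sh-CBX7. Every sh-CBX7 library thus lay above every control library. MT-RNR2 rose 1.38-fold, or by 0.46 on the log2 scale (SE 0.06, edgeR adjusted p = 1.83e-06). MT-RNR1 (ENSG00000211459, chrM:648-1601, plus strand), the RNA of the small subunit, was at 536.7, 626.3 and 636.8 CPM in sh-Control and at 728.6, 766.8 and 721.005 CPM in sh-CBX7. The groups again did not overlap, and MT-RNR1 rose by 0.30 on the log2 scale (SE 0.06, edgeR adjusted p = 0.000211). Without sh-Control replicate 1 the log2 fold changes were 0.38 and 0.23, and both stayed called.

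The rise was unequal between the 2 rRNAs. There were 0.182, 0.172 and 0.175 counts of MT-RNR1 per count of MT-RNR2 in sh-Control and 0.157, 0.156 and 0.158 in sh-CBX7. This ratio was lower in all sh-CBX7 libraries, by 0.17 on the log2 scale (exact two-sided permutation p = 0.1). With 3 libraries against 3, 0.1 is the smallest p that this test can give, and none of the 7 ratios compared within the chromosome could pass the threshold (adjusted p of at least 0.233 over the 7).

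Relative to the mRNAs the difference in rRNA was wider. In sh-Control there were 0.176, 0.184 and 0.182 rRNA counts per coding count, and in sh-CBX7 0.262, 0.274 and 0.26018. The log2 ratio was higher by 0.55 in sh-CBX7 without overlap (exact permutation p = 0.1, the smallest possible), while the SD between libraries of a group was 0.04 in both groups. This ratio does not depend on the scaling of the libraries, and leaving out any 1 library gave 0.53 to 0.57. The rRNAs took 14.8%, 15.4% and 15.2% of mitochondrial counts in sh-Control and 20.5%, 21.3% and 20.4% in sh-CBX7.

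Mitochondrial rRNAs carry at most very short A tails, so their level on poly-T beads depends on how much RNA without a long tail is carried along. Nuclear small RNA classes that mostly lack tails (snRNA, snoRNA, scaRNA, scRNA, rRNA and misc_RNA genes), looked at after the rRNA values were seen, took 0.00452%, 0.00511% and 0.00502% of all counts in sh-Control and 0.00338%, 0.00392% and 0.00373% in sh-CBX7. These classes were lower in every sh-CBX7 library but rest on few counts, most of them from misc_RNA and snoRNA genes. The misc_RNA genes had 337, 434 and 394 counts in sh-Control and 255, 348 and 292 in sh-CBX7. The snoRNA genes had 298, 349 and 299 counts in sh-Control and 259, 206 and 268 in sh-CBX7. The nuclear rRNA genes had 0 to 9 counts per library. The part of this difference in the rRNA result was not tested.

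**Figure D2:**
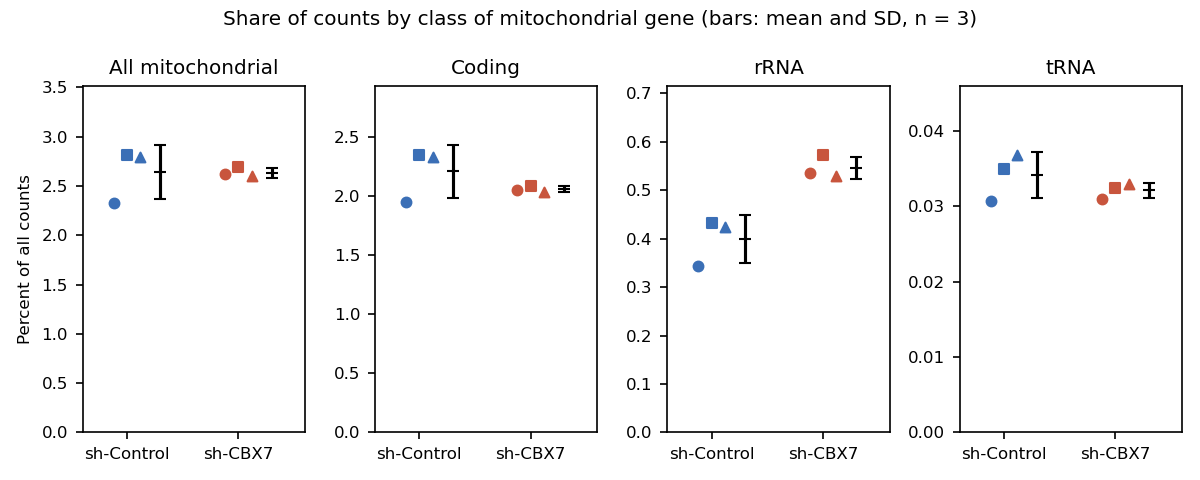
Percent of all counts taken by all mitochondrial genes, coding genes, rRNA genes and tRNA genes in each library, with mean and SD (n = 3 per group) at the side. The rRNA share did not overlap between groups (0.343% to 0.432% against 0.529% to 0.572%), while the totals did.

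The share of all counts from the mitochondrial chromosome was 2.32%, 2.81% and 2.79% in sh-Control and 2.62%, 2.69% and 2.597% in sh-CBX7. The sh-CBX7 libraries lay between the low sh-Control replicate 1 and the other controls, and the means differed by -0.00697 percentage points (exact permutation p = 1). Without sh-Control replicate 1 the difference was -0.166 points. The coding genes took 1.95%, 2.34% and 2.33% of all counts in sh-Control and 2.05%, 2.09% and 2.03% in sh-CBX7, which overlapped (exact permutation p = 0.4). The rRNA genes took 0.343%, 0.432% and 0.425% in sh-Control and 0.537%, 0.572% and 0.529% in sh-CBX7, without overlap (exact permutation p = 0.1, the smallest possible). Of mitochondrial counts alone, the rRNA genes took 15.1% ± 0.32 in the controls and 20.7% ± 0.48 with the CBX7 hairpin, and the coding genes 83.6% ± 0.29 and 78.1% ± 0.46 (SD over 3 libraries each). These last shares nearly add up to the whole, so they are 1 observation and not 2. The tRNA genes took 1.29% ± 0.044 and 1.22% ± 0.044, and their groups overlapped.

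Complex I, the NADH dehydrogenase that feeds electrons into the chain, takes 7 of its subunits from this chromosome. Of these 7, 4 were called lower and none higher, against 27.2% lower and 26.1% higher of all tested genes. MT-ND5 (ENSG00000198786, chrM:12337-14148, plus strand), a proton-pumping subunit, had the largest change among the coding genes. It was at 819.8, 1018 and 1001 CPM in sh-Control and at 717.8, 694.05 and 711.03 CPM in sh-CBX7, each below the lowest control. MT-ND5 fell by 0.42 on the log2 scale (SE 0.06, edgeR adjusted p = 9.37e-06).

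MT-ND6 (ENSG00000198695, chrM:14149-14673) is the only coding gene on the minus strand and abuts the end of MT-ND5 on the opposite strand. It stood at 320.5, 386.6 and 386.8 CPM in sh-Control and at 251.4, 294.9 and 304.7 CPM in sh-CBX7. The groups did not overlap, and MT-ND6 fell by 0.36 (SE 0.07, edgeR adjusted p = 0.000241). The ratio of MT-ND6 to MT-ND5 overlapped between groups, with 0.391, 0.37996 and 0.386 in sh-Control and 0.350, 0.425 and 0.429 in sh-CBX7 (log2 difference 0.05, exact permutation p = 0.6). The strand setting of the counting is not given in the sources used here. Reads from RNA of the other strand, precursor or mature, therefore cannot be told apart from MT-ND6 itself. Whether the fall of MT-ND6 is separate from that of MT-ND5 was not tested.

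The bicistronic pair MT-ND4L and MT-ND4, whose junction is printed above, encodes 2 membrane subunits of complex I. MT-ND4L (ENSG00000212907, chrM:10470-10766, plus strand) was at 605.5, 837.7 and 858.7 CPM in sh-Control and at 628.8, 643.6 and 608.9 CPM in sh-CBX7. The sh-Control replicates 2 and 3 lay above all other libraries, and sh-Control replicate 1 lay below every sh-CBX7 library. The difference was -0.29 on the log2 scale (SE 0.08, edgeR adjusted p = 0.00576), and -0.43 without sh-Control replicate 1. MT-ND4L was not called by DESeq2 (adjusted p = 0.107).

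MT-ND4 (ENSG00000198886, chrM:10760-12137, plus strand) was at 3208, 3923 and 3937 CPM in sh-Control and at 3259.6, 3275 and 3189.6 CPM in sh-CBX7. Here sh-Control replicate 1 fell within the range of sh-CBX7, below the other controls. Its difference was -0.19 on the log2 scale (SE 0.06, edgeR adjusted p = 0.0133). Without sh-Control replicate 2 or 3 the call was lost (adjusted p = 0.0662 and 0.119). For each count of MT-ND4 there were 0.189, 0.214 and 0.218 counts of MT-ND4L in sh-Control and 0.193, 0.197 and 0.191 in sh-CBX7, so the ratio within the pair overlapped between groups.

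The other 3 complex I genes were not called. MT-ND1, next to MT-RNR2 on the precursor, stood 0.12 higher on the log2 scale but missed the threshold (SE 0.06, edgeR adjusted p = 0.0876). Without sh-Control replicate 3 MT-ND1 was called higher at 0.17 (edgeR adjusted p = 0.0475), and without sh-Control replicate 1 its value was 0.07 and not called. MT-ND2 had -0.07 (SE 0.06) and was at 989.9, 1134 and 1158 CPM in sh-Control against 1020.3, 1053 and 1056 CPM in sh-CBX7. Without sh-Control replicate 1 MT-ND2 was called lower at -0.13 (edgeR adjusted p = 0.0112). MT-ND3 had 0.16 (SE 0.09) and was the most variable coding gene of sh-CBX7, at 454.7, 591.8 and 639.9 CPM. Without sh-CBX7 replicate 1, the low library, MT-ND3 was called higher at 0.29 (edgeR adjusted p = 0.0035).

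**Figure D3:**
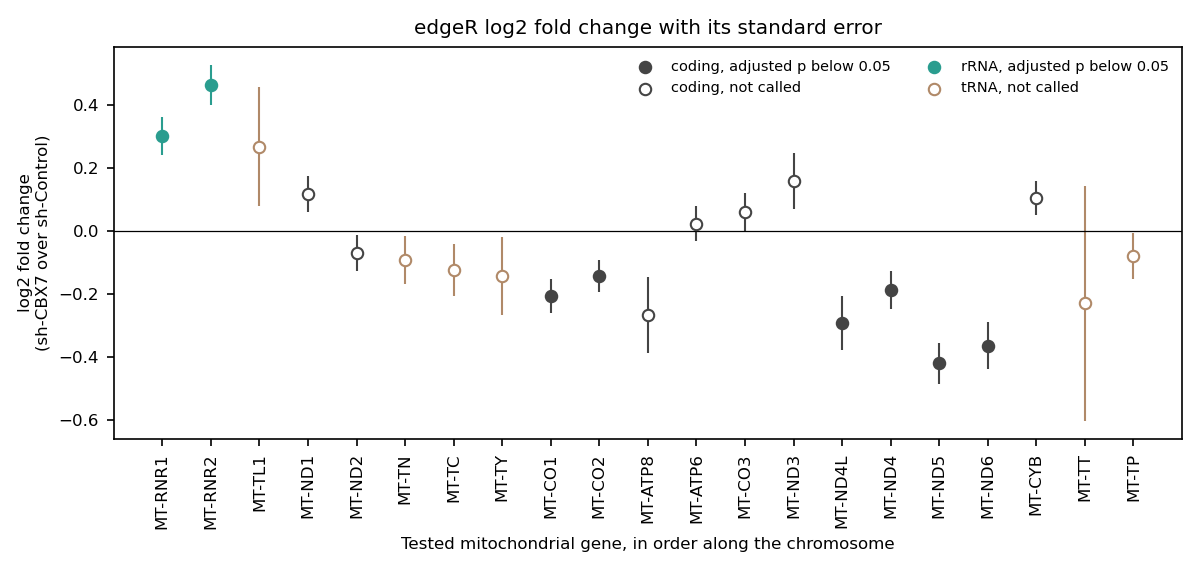
edgeR log2 fold change (sh-CBX7 over sh-Control) with its standard error for the 21 tested mitochondrial genes, in order along the chromosome; filled points had an adjusted p below 0.05. The 2 rRNAs lie at 0.30 and 0.46, and the 6 filled coding genes between -0.42 and -0.14.

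Complex IV, cytochrome c oxidase, is built around 3 subunits from this chromosome. Of these 3, 2 were called lower and none higher, against 27.2% lower and 26.1% higher of all tested genes. MT-CO1 (ENSG00000198804, chrM:5904-7445, plus strand), which holds the catalytic haem and copper centre, was at 5003, 5769.98 and 5804 CPM in sh-Control and at 4838, 4894 and 4644 CPM in sh-CBX7. All sh-CBX7 libraries were below all controls, and MT-CO1 fell by 0.21 (SE 0.05, edgeR adjusted p = 0.0028). MT-CO2 (ENSG00000198712, chrM:7586-8269, plus strand), which receives electrons from cytochrome c, was at 3031, 3343 and 3399 CPM in sh-Control and at 2928, 2955 and 2969 CPM in sh-CBX7. The groups did not overlap, but the gap between them was small. MT-CO2 fell by 0.14 (SE 0.05, edgeR adjusted p = 0.0202) and lost its call when any 1 of 4 libraries was left out (sh-Control replicate 2 or 3, sh-CBX7 replicate 1 or 2; adjusted p from 0.0632 to 0.162).

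MT-CO3, the remaining complex IV gene, was not called, at 1889, 2281 and 2277 CPM in sh-Control and 2300.4, 2291 and 2127 CPM in sh-CBX7 (log2 fold change 0.06, SE 0.06). Set against complex I counts (6 plus-strand genes), the 3 complex IV genes stood at ratios of 1.44, 1.36 and 1.35 in sh-Control and 1.42, 1.40 and 1.36 in sh-CBX7. These overlapped, and the log2 ratio differed by 0.01 (exact permutation p = 0.9).

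Complex III, the cytochrome bc1 complex, takes cytochrome b from here and ATP synthase takes 2 membrane subunits; none of these 3 genes was called. MT-CYB was at 1319, 1470.25 and 1471 CPM in sh-Control and at 1610, 1509.7 and 1461 CPM in sh-CBX7 (0.10 on the log2 scale, SE 0.05, edgeR adjusted p = 0.113). MT-ATP6 was at 1374, 1548 and 1549.9 CPM against 1435, 1525 and 1583 CPM (0.02 on the log2 scale, SE 0.06, edgeR adjusted p = 0.750). MT-ATP8 was far lower, at 18.2, 23.8 and 21.1 CPM in sh-Control and 14.6, 18.5 and 19.5 CPM in sh-CBX7 (-0.27 on the log2 scale, SE 0.12, edgeR adjusted p = 0.0652). It was called lower without sh-Control replicate 1 (log2 fold change -0.35, edgeR adjusted p = 0.00897) and without sh-CBX7 replicate 3.

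MT-ATP8 and MT-ATP6 lie on 1 mRNA, yet MT-ATP6 had 71.1 counts per MT-ATP8 count in sh-Control and 86.9 in sh-CBX7. MT-ATP8 is 207 bases long, shorter than the selected fragments, and shares the 46 bases printed above with MT-ATP6. MT-ND4L (297 bases) and MT-ND3 (346 bases) are also shorter than those fragments. They stood at 2583 and 1457 CPM per kb in sh-Control, against 102 for MT-ATP8. The part of length and shared bases in the low MT-ATP8 count was not tested. The ratio of MT-ATP8 to MT-ATP6 was lower in every sh-CBX7 library, by 0.29 on the log2 scale (exact permutation p = 0.1, the smallest possible).

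The coding genes were also compared with each other as shares of the 13-gene coding total, which removes the scaling of the libraries. By this measure 4 genes were higher in every sh-CBX7 library than in every control (MT-ND1, MT-ATP6, MT-CO3 and MT-CYB), 4 were lower (MT-CO1, MT-ND4, MT-ND5 and MT-ND6) and 5 overlapped. Groups that do not overlap by the same measure made up 53.8% of all tested genes, so 8 of 13 is close to the background. MT-ND5 went from 4.27% ± 0.13 to 3.45% ± 0.092 of coding counts and MT-CO1 from 24.97% ± 0.20 to 23.4% ± 0.40 (SD, n = 3 per group). MT-CYB went from 6.43% ± 0.19 to 7.45% ± 0.36, MT-ND1 from 4.11% ± 0.12 to 4.80% ± 0.16 and MT-CO3 from 9.698% ± 0.17 to 10.9% ± 0.38. Each of these differences has an exact permutation p of 0.1, the smallest possible.

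**Figure D4:**
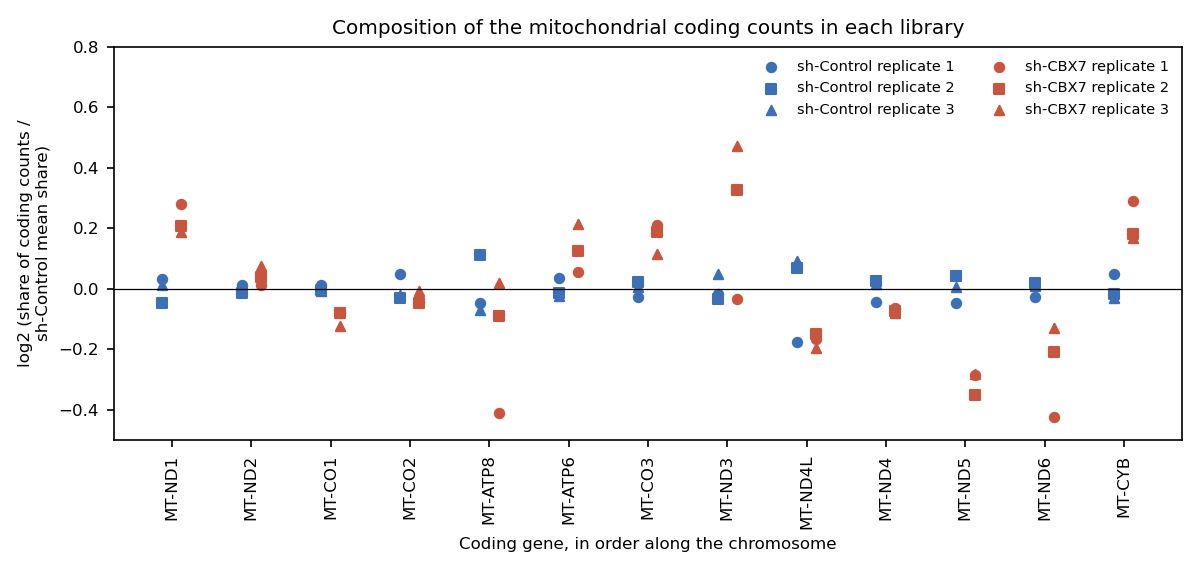
Share of mitochondrial coding counts of each coding gene in each library, as log2 of its ratio to the sh-Control mean, in order along the chromosome. All 3 sh-CBX7 points lie above the controls for MT-ND1, MT-ATP6, MT-CO3 and MT-CYB, and below them for MT-CO1, MT-ND4, MT-ND5 and MT-ND6.

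Which coding genes are called lower depends on what they are scaled to. With each library scaled to its mitochondrial total, 2 mitochondrial genes were called higher (background 21.8%) and 3 lower (MT-ND4L, MT-ND5 and MT-ND6; background 21.7%). The log2 fold change of MT-CO1 was -0.19 there, close to the value above, but its SE was 0.10 in place of 0.05. With each library scaled to its coding total, a setting added after seeing the data, the same 2 rRNAs were higher (background 28.3%) and only MT-ND5 was lower in the edgeR test (background 16.9%), at -0.31 (adjusted p = 0.014). The median of all tested genes shifted by 0.11 on the log2 scale under that setting, and MT-ND2, not called, changed sign to 0.04. The rise of both rRNAs and the fall of MT-ND5 kept direction and call under all 18 alternatives run.

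**Figure D5:**
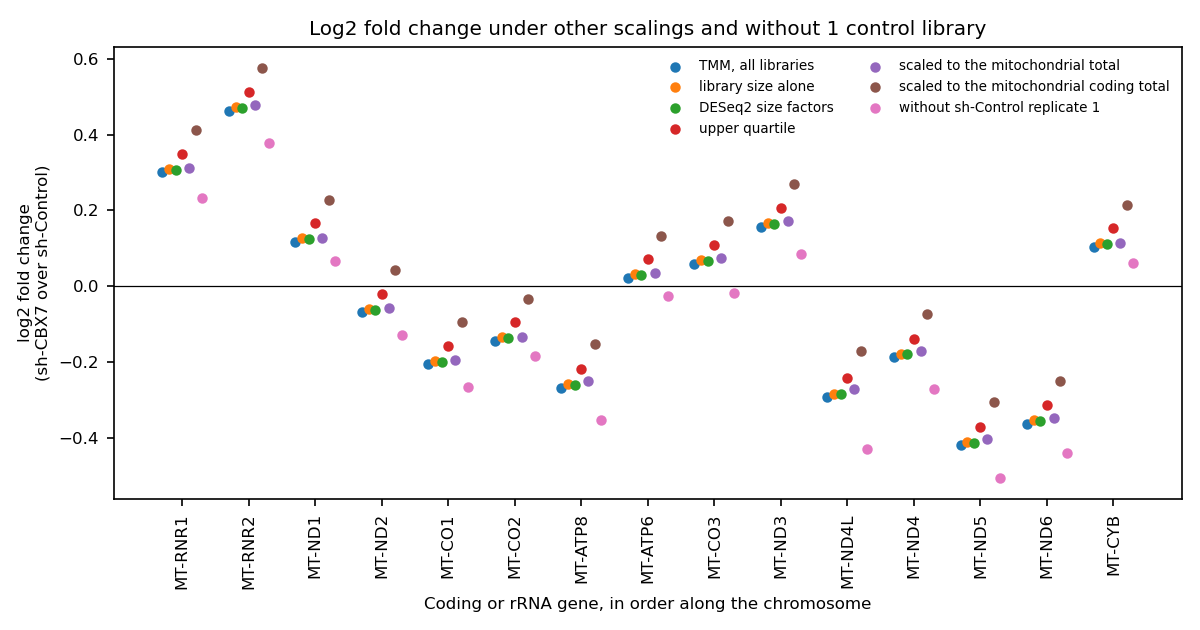
Log2 fold change (sh-CBX7 over sh-Control) of the 15 coding and rRNA genes under 6 scalings and without sh-Control replicate 1. The 2 rRNAs stay above 0 and MT-CO1, MT-CO2, MT-ATP8, MT-ND4L, MT-ND4, MT-ND5 and MT-ND6 below 0 in each setting drawn, while MT-ND2, MT-ATP6 and MT-CO3 cross it.

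Per kilobase of gene length, MT-CO2 had the highest sh-Control level among coding and rRNA genes, at 4763 CPM per kb, followed by MT-CO1 at 3583. MT-CO3 (2741), MT-ND4 (2677) and MT-ND4L (2583) came next, with coefficients of variation between libraries of 10.5%, 11.3% and 18.3%. These include the low sh-Control replicate 1, which all genes share, and do not measure the spread of a difference between genes. The order of these genes was not tested. MT-ATP6 and MT-RNR2 stood together at 2189 and 2188 CPM per kb in sh-Control. In sh-CBX7 MT-RNR2 was at 3017 and MT-ATP6 at 2224 CPM per kb. MT-RNR1 (629), MT-ND5 (522) and MT-ATP8 (102) had the lowest sh-Control levels per kb. All these levels are of RNA selected on poly-T beads.

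Position along the chromosome was described against the log2 fold change, since the rRNAs lie next to the heavy-strand promoter. MT-ND6, on the minus strand, was included, and its start position is not a distance from that promoter. Over the 15 coding and rRNA genes the log2 fold change had a Pearson r of -0.61 and a Spearman rho of -0.54 with the start position. Over the 13 coding genes alone these were -0.28 and -0.29, so most of the relation rested on the 2 rRNAs. With gene length the Pearson r was 0.11 over the 15 genes, and with GC content 0.13. The genes share libraries and precursors and are not independent.

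The tRNA genes, each of which carries 1 amino acid to the ribosome, were counted very unevenly. MT-TN, MT-TC, MT-TP and MT-TY had 15833, 11443, 5471 and 928 counts over the 6 libraries, MT-TL1 518 and MT-TT 117. The 16 tRNA genes that did not pass the filter had between 1 (MT-TF) and 36 (MT-TI) counts each. MT-TF, MT-TQ and MT-TL2 had 0 counts in each sh-Control library, where 3 counts would be 0.167 to 0.183 CPM of the unscaled library total. Such low counts allow no comparison between groups.

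The 4 most counted tRNA genes, for asparagine, cysteine, proline and tyrosine, all lie on the minus strand, which holds 8 of the 22. MT-TN and MT-TC lie on either side of 31 bases with no annotated gene, where light-strand replication starts, and MT-TP borders the control region. The other 4 minus-strand tRNA genes (MT-TQ, MT-TA, MT-TS1 and MT-TE) had 4 to 27 counts. The sequences of the 3 with over 50 CPM in sh-Control, and of MT-TL1 between MT-RNR2 and MT-ND1, are shown from the GENCODE 29 transcripts with the anticodon in capitals. All are shorter than the selected fragments.
MT-TN (chrM:5657-5729, minus): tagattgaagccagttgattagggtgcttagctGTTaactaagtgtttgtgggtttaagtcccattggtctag
MT-TC (chrM:5761-5826, minus): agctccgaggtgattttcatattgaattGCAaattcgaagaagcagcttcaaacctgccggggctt
MT-TP (chrM:15956-16023, minus): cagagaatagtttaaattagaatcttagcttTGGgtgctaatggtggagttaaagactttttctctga
MT-TL1 (chrM:3230-3304, plus): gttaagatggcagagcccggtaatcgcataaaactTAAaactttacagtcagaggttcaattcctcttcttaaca

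None of the 6 tested tRNA genes was called by edgeR over the 6 libraries, 0 of the 6 were by DESeq2, and 0 had an unadjusted edgeR p below 0.05. MT-TN was at 134.7, 156.6 and 178.6 CPM in sh-Control and at 149.1, 142.1 and 149.5 CPM in sh-CBX7 (log2 fold change -0.09, SE 0.08), and was called lower only without sh-Control replicate 1 (-0.18, edgeR adjusted p = 0.00541). MT-TC was at 107.7, 113.7 and 122.7 CPM against 87.1, 114.8 and 114.3 CPM. MT-TP was at 53.2, 56.8 and 51.2 CPM against 54.5, 48.5 and 49.7 CPM. MT-TY, at 9.30, 9.39 and 9.31 CPM against 8.74, 8.26 and 8.34 CPM, did not overlap between groups but was not called (log2 fold change -0.14, SE 0.12). MT-TL1, with a log2 fold change of 0.27 (SE 0.19), and MT-TT, with -0.23 (SE 0.37), had too few counts for a narrow estimate.

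Nuclear copies of mitochondrial DNA can take reads that belong to the organelle. By name the table held 407 such copies, 389 of them with 0 counts, and 3 passed the filter, all on chromosome 1. MTATP6P1 (chr1:633696-634376) was identical to MT-ATP6 at 671 of 681 bases and had 6.69% ± 1.14 of the counts of MT-ATP6 in the controls and 6.996% ± 0.52 with the CBX7 hairpin (SD over 3 libraries each). MTND2P28 (chr1:629640-630683) matched MT-ND2 at 1025 of 1042 aligned bases and had 8.69% ± 0.34 and 8.83% ± 0.92 of its counts. MTCO1P12 had 0.341% ± 0.043 and 0.32% ± 0.069 of the counts of MT-CO1. Each of these shares overlapped between groups, and none of the 3 copies was called, although MTCO1P12 was called lower without sh-Control replicate 1 (log2 fold change -0.46, edgeR adjusted p = 0.00153). With the copies added to their parents the log2 fold changes of MT-ATP6, MT-ND2 and MT-CO1 were 0.03, -0.07 and -0.21.

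Nuclear genes that copy, transcribe, process and translate the mitochondrial genome, and regulators of mitochondrial mass, were counted in 6 lists. The lists were chosen by function, with earlier results of these data known. Of 117 tested genes 53 were lower and 13 higher (45.3% and 11.1%, against 27.2% and 26.1% of all tested genes), with a median log2 fold change of -0.19. Of 10 transcription genes 4 were lower and none higher, but the calls of MRPL12 and TFB2M were lost in 6 and 11 of the 18 alternatives. POLRMT, the mitochondrial RNA polymerase, was 220.2 ± 26.6 CPM in the controls and fell to 179.3 ± 9.33 CPM (SD over 3 libraries each; -0.30 on the log2 scale, edgeR adjusted p = 0.00121). TFAM, which packages the DNA and starts transcription, was at 62.2 ± 2.28 and 58.3 ± 4.32 CPM and was not called (log2 fold change -0.10, SE 0.07). MTERF3 had a log2 fold change of -0.46, MRPL12, a ribosomal protein that also binds the polymerase, -0.32 and the initiation factor TFB2M -0.23. For MRPL12, sh-Control replicate 1 stood at 53.5 CPM against 38.6 and 36.03 CPM in the other controls, and without it the value was -0.12 (edgeR adjusted p = 0.28).

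Among 26 genes of mitochondrial RNA processing and decay 13 were lower and 3 higher (50% and 11.5%, against 27.2% and 26.1% of all tested genes). LRPPRC and SLIRP form a complex that stabilises mitochondrial mRNAs. SLIRP was 88.3 ± 1.94 CPM in the controls and fell to 54.2 ± 2.88 CPM (SD over 3 libraries each; -0.70 on the log2 scale, edgeR adjusted p = 4.95e-09), and LRPPRC fell to 63.4 ± 3.16 CPM from 85.1 ± 6.33 CPM (log2 fold change -0.42). ELAC2, which cuts the 3′ ends of tRNAs, fell by 0.47, and FASTKD2 and DHX30, which act in assembly of the mitochondrial ribosome, fell by 0.78 and 0.69. The 3 that rose were ANGEL2, FASTKD5 and the exoribonuclease PNPT1.

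Of 18 genes for DNA replication and the nucleoid 7 were lower and 3 higher (38.9% and 16.7%, against 27.2% and 26.1% of all tested genes). By log2 fold change the DNA ligase LIG3 was at -1.02, the ribonucleotide reductase subunit RRM2B at -0.99 and the single-strand binding protein SSBP1 at -0.48. The polymerase POLG was at -0.32 and the thymidine kinase TK2 at 0.74. Of 26 genes that modify mitochondrial tRNA and rRNA 11 were lower and 1 higher (42.3% and 3.85%, against the same background). The pseudouridine synthase RPUSD4, which acts on the large rRNA, was 25.0 ± 2.47 CPM in the controls and fell to 10.6 ± 0.88 CPM (SD over 3 libraries each; -1.23 on the log2 scale). QTRT2 had a log2 fold change of -0.58, ALKBH1 -0.66 and NSUN2 -0.35. Of 19 translation and insertion factors 12 were lower and 1 higher (63.2% and 5.26%, against the same background). The elongation factors TUFM and GFM2 were at -0.45 and -0.87, the MT-CO1 translational activator TACO1 at -0.68 and the insertase OXA1L at -0.39. Of 18 regulators of mitochondrial mass 6 were lower and 5 higher (33.3% and 27.8%), which is near the background in both directions. PPRC1 was at -1.25, the mitophagy receptor FUNDC1 at -1.02, the lysosomal regulator TFEB at 0.79 and MYC at 0.49.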

How the data were processed

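Messenger RNA of 6 libraries of 786-O cells was measured, 3 per group. The authors deposited whole-number read counts per gene without normalization. FastQC, Trimmomatic, HISAT2 2.0.5, featureCounts 1.5.0-p3 and the build hg19 are named per the submitters' processing notes, with no order, strand setting or treatment of reads that match several genes. Gene coordinates in the deposited count table matched GENCODE 29 on GRCh38 in 58724 of 58735 rows. Gene lengths, as deposited by the authors, are another measure in bases. Each column was assigned to its library through the target and the number in its name.

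Counts were filtered with filterByExpr, TMM-normalised over the full library totals and compared with the quasi-likelihood test of edgeR 4.0.16 in R 4.3.3, unpaired, with p-values adjusted over all 14573 tested genes. The SE is the size of the log2 fold change divided by the square root of F. Shares and ratios were compared with exact two-sided permutation tests over libraries. The test was run first on simulated data. Limma 3.58.1 (voom) and DESeq2 1.42.0 were alternatives, beside other scalings, filters, a replicate block and leaving out each library. Counting limits cover counting error only.

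The members are all rows on chromosome MT. Named nuclear genes are up to 4 tested members of each list by smallest p, with POLRMT, TFAM, LRPPRC, SLIRP and POLG, and the tested nuclear copies; genes counted as exceptions (ANGEL2, FASTKD5, PNPT1) were named after their values were seen. Members, lists and tests were chosen with earlier results of these data known.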

Additional observations from a re-analysis of the deposited data

How the results depend on the processing

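Of the 21 tested mitochondrial genes, 10 kept direction and call under each of the 18 alternatives, and no called gene reversed. The number called higher was 4 in place of 2 with upper quartile normalization (MT-ND1 and MT-CYB added) and 4 with a replicate block (MT-ND1 and MT-ND3 added). The number called lower was 3 in place of 6 with scaling to the mitochondrial total and 1 with scaling to the coding total; leaving out 1 library gave 3 to 9, with 3 without sh-Control replicate 3 and 9 without sh-Control replicate 1. Without 1 library 2 or 3 mitochondrial genes were higher. MT-CO2 and MT-ND4 were also not called under upper quartile normalization (adjusted p = 0.12 and 0.0618), MT-ND4L was not called without sh-Control replicate 3 (adjusted p = 0.0601), and MT-ND6 under the coding total had an adjusted p = 0.0514. Under the coding total 2459 of all tested genes were lower in place of 3967, and 29 genes of the 6 nuclear lists in place of 53. TFB2M lost its call in 11 alternatives and MRPL12 in 6, and POLRMT under both mitochondrial scalings. Scaling to the coding total also shifted the median of all tested genes by 0.11 on the log2 scale; the cause of the lost calls was not tested. Leaving out 1 library gave 3394 to 3947 higher and 3540 to 4017 lower genes. Scaling to the coding total and adding nuclear copies to their parents were chosen after seeing the data.

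Under the replicate block, MT-ND1, MT-ND3, MT-ATP8 and the copy MTCO1P12 gained a call, and 3972 genes were higher and 4126 lower in all. Libraries of the same number deviated together at correlations of 0.0553, 0.0614 and 0.0353, each library correlating best with its own number, a hint from the data too weak to pair them; the labels give no shared batch. Depth limits the tRNA genes: the SE was 0.37 for MT-TT and 0.05 for MT-CO2.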
